A study of Mus musculus with 30 samples.

Results

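The 9 genes described here encode proteins that the mouse epididymis secretes or that belong to the same secreted families: the lipocalins Lcn5, Lcn6, Lcn8, Lcn9, Lcn10 and Lcn12, the RNase A family members Rnase9 and Rnase10, and the cysteine-rich secretory protein Crisp1. They are 9 of the 49554 RefSeq genes on the autosomes and X. Their CpGs were taken from 5 kb before to 5 kb after each gene body, with both strands summed and 5 or more reads required in all 30 mice. This left 9 CpGs of the 548278 that met the same coverage rule genome-wide. DNA methylation had been measured by reduced representation bisulfite sequencing, which reads fragments cut at CCGG sites, in sperm from the cauda epididymis. The cadmium group was 15 male C57BL/6J mice given reverse-osmosis drinking water with 0.9 ppm cadmium, supplied as cadmium chloride, for 9 weeks from 7 weeks of age, at an average dose of 0.68 mg per kg body weight. The vehicle group was 15 male C57BL/6J mice of the same age given reverse-osmosis water without cadmium for 9 weeks. The comparison asks whether drinking cadmium changes sperm DNA methylation at these genes. Both groups were housed singly on a purified diet with 10% of its calories from fat.

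Sperm leave the testis unable to fertilise and mature while they pass through the epididymis, whose epithelium secretes proteins into the fluid around them. Lipocalins are small secreted barrel-shaped proteins that carry hydrophobic molecules, and several lipocalin genes lie next to each other on mouse chromosome 2. RNASE9 and RNASE10 belong to the ribonuclease A family, and CRISP1 binds to the sperm surface. The genes are active in the epithelium, whereas the methylation described here was measured in the sperm collected from the duct.

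RRBS sees little of these genes. Lcn9 kept 4 CpGs, Lcn5 kept 2, and Lcn6 and Lcn10, which are neighbours with overlapping windows, kept the same 3. Lcn8, Lcn12, Rnase9, Rnase10 and Crisp1 kept 0. Genome-wide, 64.1% of genes kept at least 1 CpG, and a window that kept any held a median of 12. Before the coverage rule, 88 CpGs of the 9 genes had at least 1 read in some mouse. In each group, 10 or more mice had 5 or more reads for 29 of these, among them 4 of Lcn12, 4 of Rnase10 and 1 of Rnase9. Lcn8 had 15 CpGs with any read and Crisp1 had 4, and none of them reached that coverage. Just inside the rule, the CpG of Lcn5 at chr2:25662991 had 5 reads in its least covered mouse and averaged 63.6% in cadmium and 71.7% in vehicle mice. Just outside it, the Lcn9 CpG at chr2:25823644 had 5 or more reads in 14 cadmium and 15 vehicle mice and averaged 85.1% in cadmium and 82.9% in vehicle mice. No gene outside the 9 shared the 9 CpGs in its window.

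CCGG was found in 1 of the 10 RefSeq promoters of these genes, against 52.8% of the 32851 promoters in the table. All 9 genes matched by symbol, and Rnase10 has a pair of overlapping promoter entries. Each entry runs from 250 bases before to 50 bases after a transcription start. The 10 promoters held 0 to 4 CG, against a median of 7 over all promoters. The 4 promoters below are from RefSeq GRCm38.p6, written 5′ to 3′ with every CG in capitals, and were chosen to show the starts of genes whose CpGs are described here. Rnase10 (second start) is chr14:51007679-51007978 on the plus strand and is the one member promoter that contains a CpG with reads, the last capital pair. Lcn9 is chr2:25822903-25823202, Lcn10 is chr2:25682476-25682775 and Lcn5 is chr2:25657702-25658001, all on the plus strand, and their measured CpGs lie outside these bases.
Rnase10: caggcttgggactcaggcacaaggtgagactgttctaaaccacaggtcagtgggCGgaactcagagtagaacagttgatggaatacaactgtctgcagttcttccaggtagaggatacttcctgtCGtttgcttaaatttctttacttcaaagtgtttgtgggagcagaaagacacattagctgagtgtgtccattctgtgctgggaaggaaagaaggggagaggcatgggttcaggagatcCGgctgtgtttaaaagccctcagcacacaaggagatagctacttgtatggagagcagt
Lcn9: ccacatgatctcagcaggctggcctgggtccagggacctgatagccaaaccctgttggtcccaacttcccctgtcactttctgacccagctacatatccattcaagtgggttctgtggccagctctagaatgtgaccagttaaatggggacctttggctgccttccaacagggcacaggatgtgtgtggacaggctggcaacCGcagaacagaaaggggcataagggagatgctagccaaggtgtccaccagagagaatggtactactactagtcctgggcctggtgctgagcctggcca
Lcn10: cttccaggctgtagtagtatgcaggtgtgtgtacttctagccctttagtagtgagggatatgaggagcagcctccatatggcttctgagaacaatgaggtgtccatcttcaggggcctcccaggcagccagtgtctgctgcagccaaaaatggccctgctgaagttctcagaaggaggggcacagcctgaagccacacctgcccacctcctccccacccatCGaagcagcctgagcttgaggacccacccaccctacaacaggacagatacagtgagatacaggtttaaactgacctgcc
Lcn5: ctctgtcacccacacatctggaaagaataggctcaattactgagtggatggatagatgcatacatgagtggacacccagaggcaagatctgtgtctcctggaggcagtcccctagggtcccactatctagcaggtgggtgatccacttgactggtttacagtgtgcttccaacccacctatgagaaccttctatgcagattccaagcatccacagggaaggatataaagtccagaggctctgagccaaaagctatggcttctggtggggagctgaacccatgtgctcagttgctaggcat

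Besides CG and CCGG, 4 motifs were searched on both strands of the 10 promoters. AGAACA, the repeated unit of the androgen response element, was found in 8 of the 10 promoters and in 19.0% of all promoters. The 8 belong to 7 of the 9 genes and include both overlapping entries of Rnase10. Its full inverted repeat with 3 bases between the units was found in 0 of the 10 and in 0.00913% of all promoters. TATAA was found in 4 of the 10 and in 24.9% of all promoters. TGTTTAC, a forkhead motif, was found in 0 of the 10 and in 3.65% of all promoters. These are matches of letters in a window of 300 bases.

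The 30 libraries had a summed coverage of 57856937 to 79777446 reads over cytosines in cadmium mice and 53591172 to 94090975 in vehicle mice. The spiked methylated control read 97.9% to 98.7% methylated and the unmethylated control 0.0740% to 0.666%. The share of coverage on the mitochondrial genome, chrM, is the quantity against which levels are set. It averaged 0.0586% ± 0.0252 in cadmium mice and 0.0584% ± 0.0342 in vehicle mice (SD, n = 15 each; two-sided permutation test, p = 0.987). It ranged between 0.0127% in cadmium mouse 5 and 0.119% in vehicle mouse 13. Gene ends of genes with maternal germline differentially methylated regions averaged 6.86% to 23.7% per mouse in cadmium mice and 4.61% to 33.4% in vehicle mice, over 14 measured ends. Such regions are unmethylated in sperm as background knowledge. The regions themselves were not located, and a gene end need not hold one.

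The lipocalin CpGs were mostly highly methylated, with no difference between cadmium and vehicle mice that passed the test. Their levels varied widely between mice of the same group, and both groups overlapped at every CpG. Methylation was lower in mice with more mitochondrial coverage at 4 of the 9 CpGs, where 5.41% of all CpGs and 14% of CpGs averaging 50% or more were called lower. The 9 CpGs had a median level of 83.9%, against 1.55% for all CpGs. Their median SD over mice was 19.7 points, against 11.1 for all CpGs averaging 50% or more. An SD of percentages depends on level and read depth, and these CpGs were not matched to the others on either.

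Lcn5 encodes the retinoic acid-binding lipocalin of the mouse epididymis, and both of its measured CpGs lie beyond the end of the gene (body chr2:25657932-25662230, plus strand). At chr2:25662991, 761 bp past the gene body, the cadmium mice ran from 0% over a median of 71.9% to 100%, and the vehicle mice from 0% over a median of 92.9% to 100%. The groups spanned the same range, with 5 cadmium and 6 vehicle mice at 100% and 5 cadmium and 4 vehicle mice under 50%. The means were 63.6% ± 34.9 in cadmium mice and 71.7% ± 39.4 in vehicle mice (SD, n = 15 each), a difference of -8.11 points with a 95% interval of -35.9 to 19.7 (adjusted p = 0.629, logistic model fitted over all CpGs). At chr2:25666417, 4187 bp past the body, levels were high and narrow in every mouse. They were 91.7% ± 8.55 in cadmium mice, lowest 74.7% and median 92.0%, and 91.8% ± 7.36 in vehicle mice, lowest 75.6% and median 91.2% (SD, n = 15 each). The pair shows how unlike CpGs of 1 window can be: the nearer one was spread over the whole scale at a median depth of 32.5 reads, and the farther one was at 74.7% or more in every mouse at 138.5 reads.

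Lcn6 and Lcn10, neighbouring members of the lipocalin cluster, share 3 CpGs that lie inside the body of Lcn10 (chr2:25682726-25686081, plus strand) and 1936 to 2097 bp past the body of Lcn6 (chr2:25676638-25681608, plus strand). They sit within 161 bp, so single reads can cover several of them. At chr2:25683544, 818 bp after the Lcn10 start, cadmium mice ran from 0% over a median of 90.0% to 100%, and vehicle mice from 14.5% over a median of 100% to 100%. Full methylation was read in 6 cadmium and 12 vehicle mice there. The means were 81.1% ± 26.2 in cadmium mice and 88.4% ± 26.3 in vehicle mice (SD, n = 15 each; adjusted p = 0.828). At chr2:25683570 the lowest, median and highest levels were 36.5%, 72.3% and 100% in cadmium mice and 44.6%, 88.5% and 100% in vehicle mice. At chr2:25683705 they were 0%, 80.6% and 100% in cadmium mice and 3.33%, 100% and 100% in vehicle mice. The difference of the means was -9.88 points at the first of these (95% interval -24.4 to 4.65) and -10.0 points at the second (95% interval -32.1 to 12.1), and neither passed the test (adjusted p = 0.864 and 0.587, logistic model).

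Lcn9, an epididymal lipocalin further along the chromosome (body chr2:25823088-25825546, plus strand), kept the most CpGs of the 9 genes. Its upstream CpG at chr2:25822448, at -705 bp from the start, had intermediate levels, with 56.0% ± 32.3 in cadmium mice and 55.8% ± 32.7 in vehicle mice (SD, n = 15 each; adjusted p = 1). Single mice ran from 0% over a median of 57.1% to 100% in the cadmium group and from 10.3% over a median of 45.2% to 100% in the vehicle group. The groups overlapped over nearly the whole scale, with 7 cadmium and 8 vehicle mice under 50%. The other 3 CpGs lie in the gene body, 412, 427 and 455 bp after the start, within 43 bp of each other.

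At these 3 Lcn9 body CpGs the cadmium mice had the higher mean, and none of the differences passed the test. The CpG at chr2:25823565 ran from 74.0% over a median of 100% to 100% in cadmium mice and from 41.5% over a median of 88.0% to 100% in vehicle mice. Its means were 93.8% ± 9.78 in cadmium mice and 81.3% ± 20.7 in vehicle mice (SD, n = 15 each), a difference of 12.4 points with a 95% interval of 0.330 to 24.5, and an adjusted p of 0.517 in the logistic model. This was the smallest adjusted p of the 9 CpGs. Full methylation was read in 10 cadmium and 7 vehicle mice, and the lowest vehicle mice lay below every cadmium mouse. The CpGs at chr2:25823580 and chr2:25823608 averaged 89.7% ± 12.4 and 87.7% ± 17.1 in cadmium mice, against 78.6% ± 20.2 and 80.2% ± 14.6 in vehicle mice (SD, n = 15 each; adjusted p = 0.541 and 0.548, logistic model).

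**Figure D1:**
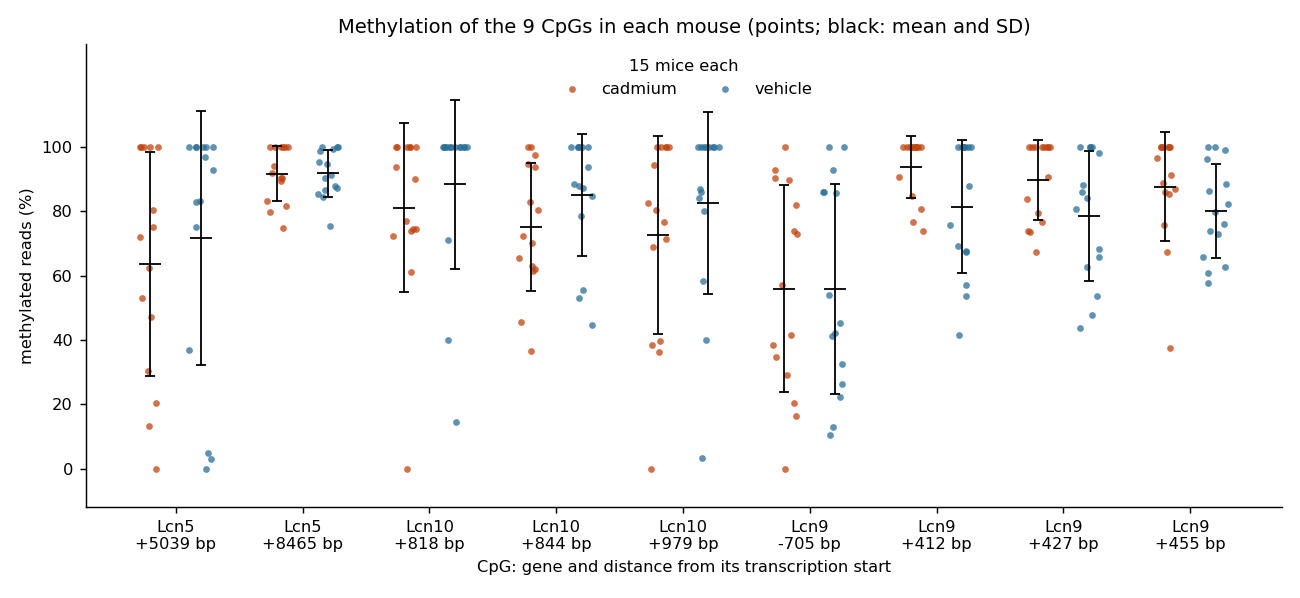
Methylated reads in percent (vertical axis) at each of the 9 CpGs in each mouse, with cadmium mice left of vehicle mice, 15 per group; black bars are the mean and SD, and the labels give the distance from the transcription start of the gene named. Both groups overlap at all 9 CpGs. The upstream Lcn9 CpG, the first Lcn5 CpG and the Lcn10 CpGs at 818 and 979 bp spread from 0% to 100%.

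Across the 9 CpGs, 0 were called between the groups at an adjusted p under 0.05, where 0.00146% of all 548278 CpGs were called. The logistic model held 0 of the 9 and 10.4% of all CpGs at an unadjusted p under 0.05, while limma on the percentages called 0 of all CpGs and held 1 of the 9 and 9314 of all 548278 at an unadjusted p under 0.05. Summed over each gene window, the share of methylated reads was 85.1% ± 11.9 in cadmium mice and 88.5% ± 9.54 in vehicle mice for Lcn5 (SD, n = 15 each). For Lcn6 and Lcn10 it was 74.7% ± 17.4 in cadmium mice and 85.9% ± 16.8 in vehicle mice, a difference of -11.2 points with a 95% interval of -24.0 to 1.59. For Lcn9 it was 80.4% ± 12.7 in cadmium mice and 75.3% ± 17.7 in vehicle mice, a difference of 5.11 points with a 95% interval of -6.43 to 16.6. All 3 distinct windows had an adjusted p of 1, and 0% of the 31753 gene windows were called; the logistic model held 1428 windows at an unadjusted p under 0.05, and limma, which also called 0, held 1083.

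Methylation of these windows fell with the share of coverage on chrM. The Lcn9 window had a Pearson r of -0.80 over 30 mice (permutation p = 1e-05, the smallest that 100000 resamples can give; adjusted p = 0.000148 over 31730 windows) and a Spearman rho of -0.79 (permutation p = 2e-05, adjusted p = 0.000280). Its level was 93.2% in cadmium mouse 5, which had the lowest share, and 44.6% in vehicle mouse 13, which had the highest, and a straight line fell by 4.18 points for each 0.01% of chrM share. Without vehicle mice 13 and 12, the pair farthest from the median share, r was -0.76 (permutation test, adjusted p = 0.000378). Within the groups r was -0.70 in cadmium mice (adjusted p = 0.0602) and -0.88 in vehicle mice (permutation test, adjusted p = 0.00149). Spearman rho was -0.74 in cadmium mice and -0.86 in vehicle mice, and passed in both (permutation test, adjusted p = 0.0498 and 0.00524). With 20 reads required in every mouse, the window kept 1 CpG and r was -0.41 (permutation test, adjusted p = 0.0796).

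The other windows had smaller correlations of the same sign. For Lcn5, r was -0.55 (permutation p = 0.00152, adjusted p = 0.00773) and rho -0.57 (permutation p = 0.00123, adjusted p = 0.00677); r was -0.50 without vehicle mice 12 and 13 (permutation test, adjusted p = 0.0294), -0.70 within cadmium mice and -0.47 within vehicle mice, neither of which passed (permutation test, adjusted p = 0.0538 and 0.209). For the shared window of Lcn6 and Lcn10, r was -0.56 (permutation p = 0.00106, adjusted p = 0.00581) and rho -0.58 (permutation p = 0.00082, adjusted p = 0.00493). That call rests on the extreme pair of mice: without vehicle mice 12 and 13, r was -0.44 with an adjusted permutation p of 0.0629, although rho was -0.51 with an adjusted permutation p of 0.0312. Within cadmium mice r was -0.38 for this window, and within vehicle mice it was -0.77 (permutation test, adjusted p = 0.395 and 0.00707). Its rho was -0.375 within cadmium mice and -0.68 within vehicle mice (permutation test, adjusted p = 0.422 and 0.0479). By rho, Lcn5 passed within cadmium mice at -0.74 and not within vehicle mice at -0.43 (permutation test, adjusted p = 0.0496 and 0.277). All 4 measured genes, 3 distinct windows, were called lower with chrM share, where 18.6% of all gene windows and 27.9% of windows averaging 50% or more were called lower and 12.8% and 6.98% were called higher. The slope did not differ between the groups by test (smallest adjusted p = 1.00 among the member windows, logistic model with interaction; 0.0634% of windows called).

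**Figure D2:**
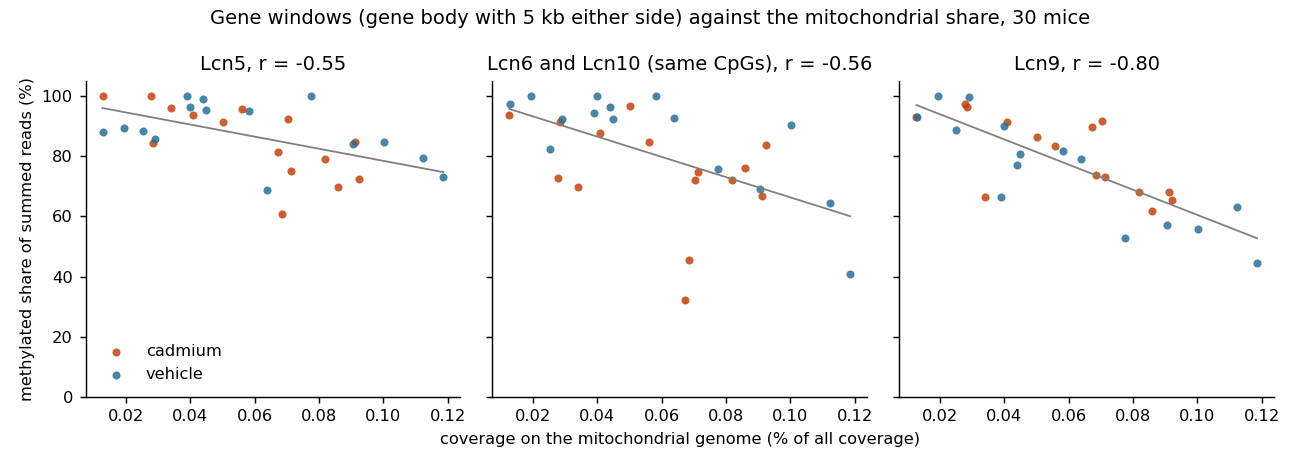
Share of methylated reads in percent over each gene window (vertical axis) against the share of all coverage on the mitochondrial genome in percent (horizontal axis), 1 point per mouse, cadmium mice in orange and vehicle mice in blue, with a fitted straight line in grey. The Lcn9 points fall most steeply, with r = -0.80, and the points of both groups lie intermingled along the lines.

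Among single CpGs, the upstream Lcn9 CpG at chr2:25822448 had the largest r in size, at -0.68 (permutation p = 6e-05, adjusted p = 0.00185 over 456391 CpGs) and rho = -0.68 (permutation p = 4e-05, adjusted p = 0.00169). It was methylated in 87 of 97 reads in cadmium mouse 5, or 89.7% (exact 95% binomial interval 81.9% to 94.9%), and in 27 of 102 reads in vehicle mouse 13, or 26.5% (18.2% to 36.1%). Without vehicle mice 12 and 13 its r was -0.70 (permutation test, adjusted p = 0.00343), and it was -0.72 within cadmium mice and -0.67 within vehicle mice, neither of which passed (permutation test, adjusted p = 0.165 and 0.0901). The first Lcn5 CpG at chr2:25662991 had r = -0.63 (permutation p = 0.00019, adjusted p = 0.00424) and rho = -0.60 (permutation p = 0.00057, adjusted p = 0.0106). It was read as methylated in all 13 reads of cadmium mouse 5 and in 2 of 42 reads of vehicle mouse 13, and its r was -0.66 without the extreme pair, -0.63 within cadmium mice and -0.64 within vehicle mice, where again neither group passed alone (permutation test, adjusted p = 0.276 and 0.0941). The difference of slope between the groups was not called at either CpG (adjusted p = 0.953 and 1, logistic model with interaction).

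In the Lcn9 body, the CpG 412 bp after the start had r = -0.65 (permutation p = 0.00012, adjusted p = 0.00304) with rho = -0.64 (permutation p = 0.00024, adjusted p = 0.00571), and the one 427 bp after it had r = -0.52 (permutation p = 0.0035, adjusted p = 0.0370) with rho = -0.52 (permutation p = 0.00369, adjusted p = 0.0410). Without vehicle mice 12 and 13 neither r passed, at -0.52 and -0.46 (permutation test, adjusted p = 0.0592 and 0.121), while rho was -0.57 and passed at the first and -0.46 and did not pass at the second (permutation test, adjusted p = 0.0375 and 0.133). The last body CpG had r = -0.41 and did not pass (permutation test, adjusted p = 0.162). The 3 CpGs in the Lcn10 body had r of -0.47, -0.46 and -0.39, none of them called (permutation test, adjusted p = 0.0668, 0.0844 and 0.185). The far Lcn5 CpG, with high levels in every mouse, had r = -0.21 (permutation test, adjusted p = 0.640).

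In all, 4 of the 9 CpGs were called lower with chrM share and 0 higher. The background was 5.41% lower and 5.02% higher over all CpGs, and 14% lower and 1.4% higher over CpGs averaging 50% or more, a split added after seeing the data. Pearson's r was below 0 at all 9 CpGs in all mice, in cadmium mice alone and in vehicle mice alone. The median r was -0.47, against -0.0075 over all CpGs and -0.13 over CpGs averaging 50% or more. With 15 mice, 0 of the 9 passed within cadmium mice, where 76 of 388217 CpGs were called lower. Within vehicle mice 3 passed by r, where 13986 of 397848 were called lower. Of these 3, the CpG at chr2:25823565 is among the 4 called in all mice, and those at chr2:25683570 and chr2:25823608 are not. By rho none of these 3 passed within vehicle mice, at -0.69, -0.62 and -0.71 in that order (permutation test, adjusted p = 0.0971, 0.158 and 0.0765). No difference of slope between the groups was called (smallest adjusted p = 0.284, logistic model with interaction, where 1.02% of CpGs were called). The chrM share had r = 0.092 with total coverage (permutation p = 0.627), -0.079 with the unmethylated control (permutation p = 0.677) and 0.033 with the methylated control (permutation p = 0.864), none of which passed.

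**Figure D3:**
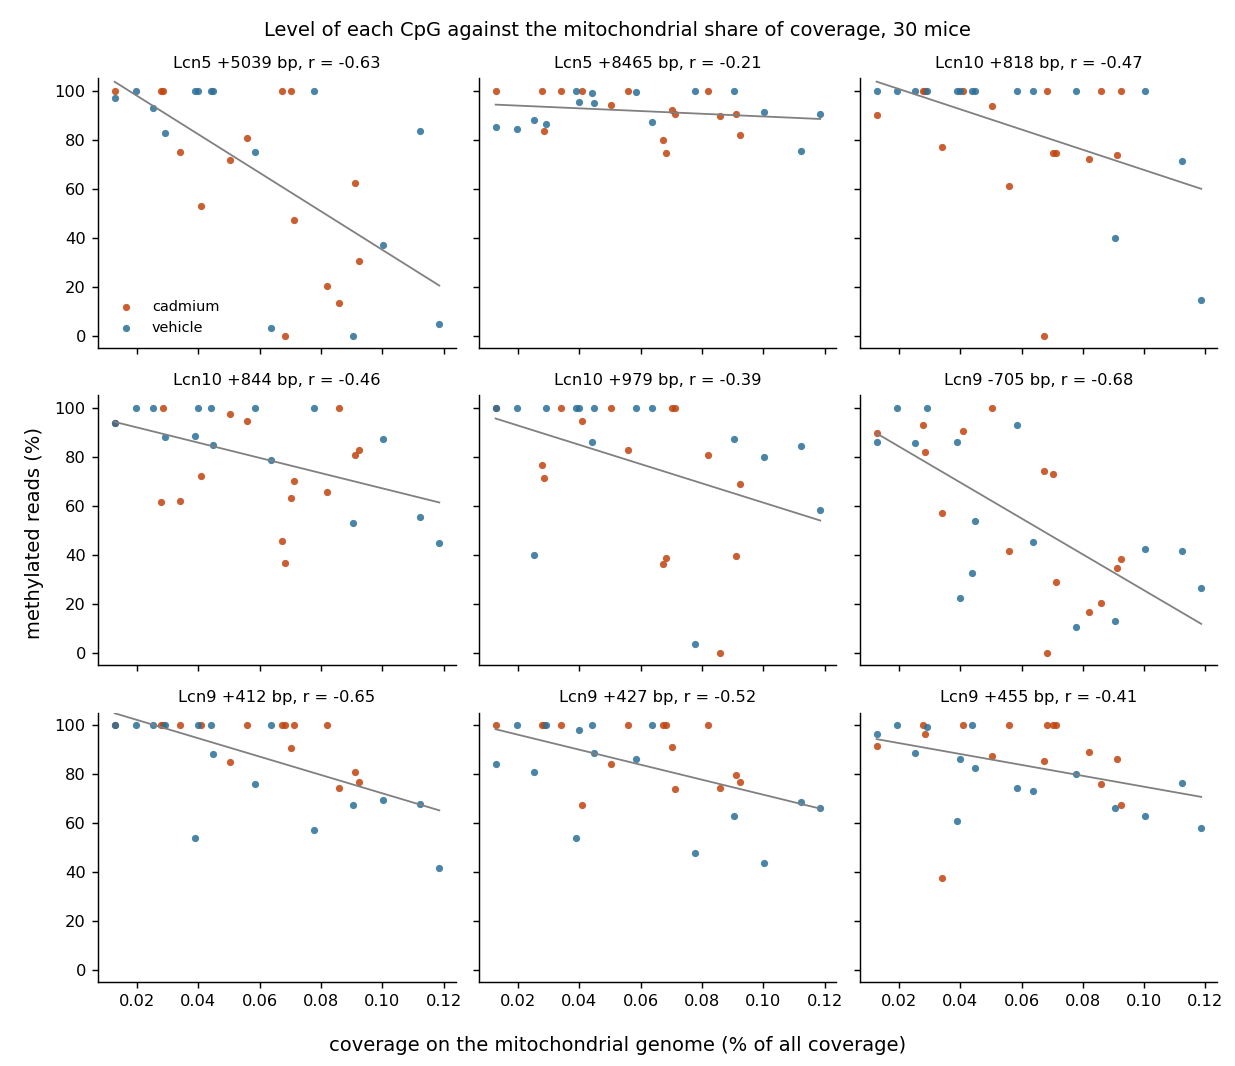
Methylated reads in percent (vertical axes) at each of the 9 CpGs against the share of coverage on the mitochondrial genome in percent (horizontal axes), 1 point per mouse, cadmium mice in orange and vehicle mice in blue, with a fitted straight line. The lines slope down in all 9 panels, and r is largest in size at the upstream Lcn9 CpG (-0.68) and smallest at the far Lcn5 CpG (-0.21).

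Other cells can carry other methylation levels, and a share of reads does not tell how many cells of a kind were present. Promoters of such germ cell genes are methylated in most somatic cells and low in sperm as background knowledge. The gene end measured was the one with more CpGs and need not be the promoter. Gene ends of the germ cell list were called higher with chrM share in 8 of 9 measured genes, with a median r of 0.84. Their mean per mouse ran from 10.2% to 50.1% in cadmium mice and from 7.996% to 60.03% in vehicle mice. Gene ends of the genes with maternal germline regions were higher in 8 of 14, with a median r of 0.55. Of the epithelial list, 1 of 7 gene ends was lower and 0 higher; of the fibroblast and smooth muscle list, 0 of 4 were lower and 1 higher; of the leukocyte list, 2 of 14 were measured and 0 called. Over all gene ends 3.79% were called lower and 10.4% higher. The median level was 33.0% for the germ cell ends and 0.749% over all gene ends. No share for gene ends of like level was computed. The part of any of these in the lipocalin values was not tested.

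**Figure D4:**
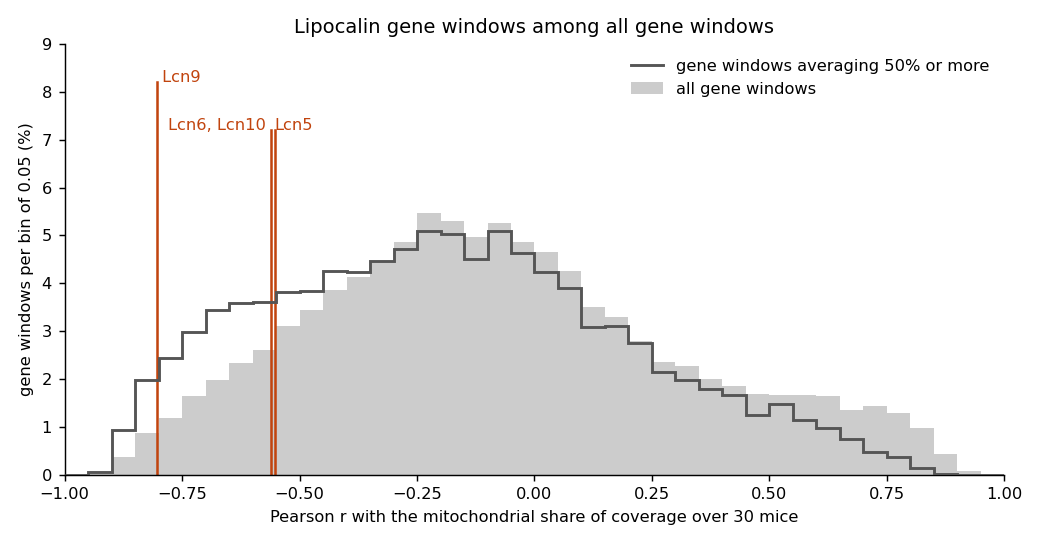
Distribution of Pearson's r between gene window methylation and the mitochondrial share of coverage over 30 mice: percent of windows per bin of r (vertical axis) over r (horizontal axis), for all windows (grey area) and windows averaging 50% or more (dark line), with orange lines at the lipocalin windows. Lcn5 and the shared Lcn6 and Lcn10 window lie at -0.55 and -0.56, among many windows below 0, and Lcn9 lies at -0.80 near the lower end.

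Levels of the windows were positively correlated with each other. Over the 30 mice, as a description, r between window levels was 0.49 for Lcn5 and Lcn10, 0.34 for Lcn5 and Lcn9 and 0.41 for Lcn10 and Lcn9; the windows share libraries and their depth. Among CpGs, the first 2 in the Lcn9 body had r = 0.80 with each other and lie on the same reads, while their r with the upstream Lcn9 CpG was 0.29 and 0.24. Genes whose windows tracked the mean of the lipocalin windows most closely, among 26443 compared, were Angpt2 (angiopoietin-2, a vascular growth factor; r = 0.91), the lncRNA Gm32702 (r = 0.91), the microRNA genes Mir6921 and Mir6922, which share their CpGs (r = 0.90), and the lncRNA Gm21057 (r = 0.89). Each of these had an r with chrM share of -0.85 or below.

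The wider set of 29 CpGs, each with 5 or more reads for 10 or more mice per group, brought in Lcn12, Rnase10 and Rnase9. In it, 27 CpGs averaged over 50%, 0 were called between groups (smallest adjusted p = 0.534, logistic model; 0 at an unadjusted p under 0.05), and 17 were called lower with chrM share and 0 higher in a logistic model, where 10.4% of such CpGs were called lower and 7.64% higher. That background covers CpGs of any level, and no share for CpGs averaging 50% or more was computed for the wider set. Of the 20 CpGs not in the first set, 9 were called lower. At Rnase10, whose protein is needed in mice for sperm to pass the junction of uterus and oviduct, the CpG at chr14:51007921, 8 bases before the second start and inside the promoter printed above, had 70.9% ± 35.2 in cadmium mice (SD, n = 15) and 75.1% ± 30.2 in vehicle mice (SD, n = 14). It ran from 0% to 100% in cadmium mice and from 13.9% to 100% in vehicle mice, and was called lower with chrM share (adjusted p = 0.0115, logistic model). The 3 other Rnase10 CpGs, 152 to 183 bp after that start, were not called (adjusted p = 0.548 to 0.587, logistic model).

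Rnase9, an RNase A family member of the epididymis, had 1 CpG in the wider set, in the flank past its gene. It averaged 93.6% ± 17.8 in cadmium mice (SD, n = 14) and 96.96% ± 10.2 in vehicle mice (SD, n = 15). The lowest mouse was at 34.4% in the cadmium group and at 60.6% in the vehicle group. This CpG was not called against chrM share (adjusted p = 0.980, logistic model). Lcn12, another epididymal lipocalin, had 4 CpGs in its body. Those 219 and 385 bp after the start averaged 52.3% ± 39.7 (SD, n = 12) and 50.9% ± 39.8 (SD, n = 13) in cadmium mice, against 63.7% ± 39.2 (SD, n = 12) and 45.5% ± 39.0 (SD, n = 14) in vehicle mice. Those 2654 and 2969 bp after it averaged 84.0% and 69.3% in cadmium mice, against 90.9% and 81.3% in vehicle mice. None was called against chrM share (adjusted p = 0.0841 to 0.416, logistic model). Near the Lcn6 start, CpGs at 485 and 676 bp averaged 68.3% ± 34.2 (SD, n = 13) and 58.8% ± 36.2 (SD, n = 14) in cadmium mice, against 73.1% ± 34.5 (SD, n = 13) and 70.4% ± 28.1 (SD, n = 15) in vehicle mice, and both were called lower with chrM share (adjusted p = 0.0372 and 0.0143, logistic model).

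**Figure D5:**
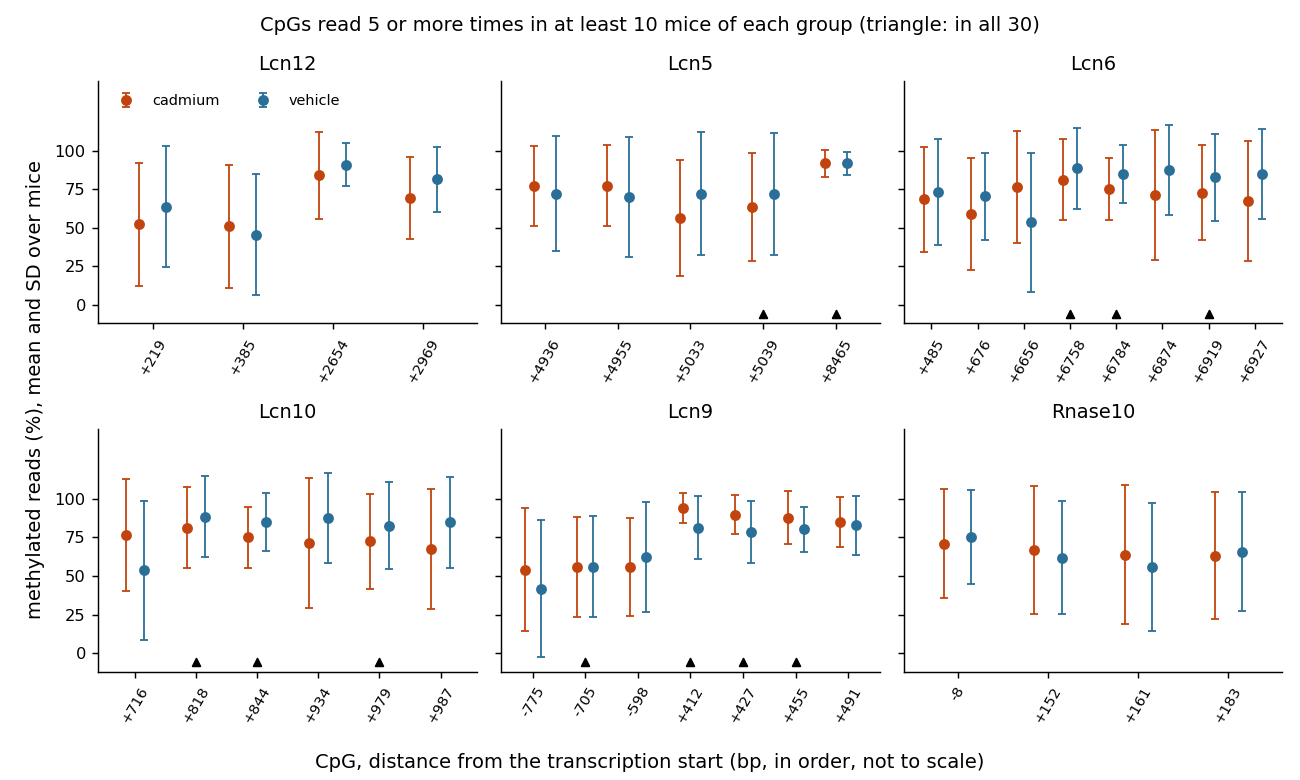
Methylated reads in percent (vertical axes, mean and SD over the mice with 5 or more reads) at the CpGs of 6 genes in the wider set, in order of distance from the transcription start (horizontal axes, in bp, not to scale), cadmium mice in orange and left of vehicle mice in blue; triangles mark the CpGs with 5 or more reads in all 30 mice. Lcn6 and Lcn10 share 6 CpGs, and the error bars of both groups overlap at every CpG.

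Related genes, listed from their known roles, were measured the same way, and 0 windows of any list were called between groups. Of 9 measured other lipocalins, 2 were called lower with chrM share and 0 higher, with a median r of -0.098 against -0.11 over all windows, of which 18.6% were lower and 12.8% higher. They were Ptgds, a prostaglandin D synthase of the lipocalin family (r = -0.84, rho = -0.85; permutation test, adjusted p = 0.000148 and 0.000172), and Lcn2, a siderophore-binding lipocalin (r = -0.53, rho = -0.59; permutation test, adjusted p = 0.00889 and 0.0053). Of 10 measured RNase A genes, 1 was lower, Rnase13 (r = -0.66, rho = -0.66; permutation test, adjusted p = 0.000651 and 0.00102), and 3 were higher, beside the same 18.6% and 12.8% of all windows. Among these, Rnase11 and Rnase12 share their CpGs and had r = 0.49 (permutation test, adjusted p = 0.0128), which was 0.25 without vehicle mice 12 and 13, and rho = 0.40 (permutation test, adjusted p = 0.0779). The other named genes of these families had an r without those mice of -0.81 for Ptgds, -0.54 for Lcn2 and -0.61 for Rnase13.

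Of 9 measured CAP-domain genes, the family of CRISP1, 2 were called lower with chrM share and 2 higher. Crispld2 had r = -0.89, while Pi16 had r = 0.90 and Crispld1 r = 0.82, and rho was -0.88, 0.93 and 0.81 (permutation test, adjusted p = 0.000148 for each r and 0.000172 for each rho). Without vehicle mice 12 and 13, r was -0.86 for Crispld2, 0.88 for Pi16 and 0.77 for Crispld1. Of 26 measured other genes of the epididymal epithelium, 9 were called lower and 2 higher, where 18.6% of all windows were called lower and 12.8% higher. This list had a median level of 66.3%, and of windows averaging 50% or more 27.9% were called lower and 6.98% higher. Wfdc8, a gene of the family of protease inhibitors with WAP domains, had r = -0.84 and rho = -0.84 (permutation test, adjusted p = 0.000148 and 0.000172). Npc2, a cholesterol-binding protein of epididymal fluid, had r = -0.64 and rho = -0.68 (permutation test, adjusted p = 0.00107 and 0.000631), and Etv5, an ETS transcription factor, had r = -0.63 and rho = -0.61 (permutation test, adjusted p = 0.00145 and 0.00307). Without vehicle mice 12 and 13, r was -0.80 for Wfdc8, -0.64 for Npc2 and -0.70 for Etv5.

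Between the groups, the related windows with the smallest p all had an adjusted p of 1 in the logistic model. Several rest on few CpGs: the windows of Ambp, Obp2b, Bsph1, Defb23 and Cst11 held 1 each, and those of Ear10 and Rnase11 held 2 each. Among lipocalins, Ambp averaged 98.5% ± 3.39 in cadmium mice and 92.8% ± 10.4 in vehicle mice, and Obp2b 88.1% ± 12.995 in cadmium mice and 95.6% ± 5.67 in vehicle mice (SD, n = 15 each). Obp2a averaged 14.0% in cadmium mice and 18.3% in vehicle mice. Among RNase A genes, Ear6 averaged 65.8% in cadmium mice and 58.0% in vehicle mice, Ear10 22.3% in cadmium mice and 33.5% in vehicle mice, and Rnase11 3.01% in cadmium mice and 8.97% in vehicle mice. Among CAP-domain genes, Crispld1 averaged 37.0% in cadmium mice and 33.4% in vehicle mice, Clec18a 21.9% in cadmium mice and 20.3% in vehicle mice, and Crisp3 96.1% in cadmium mice and 97.1% in vehicle mice. Among the other epididymal genes, Bsph1 averaged 99.5% ± 2.04 in cadmium mice and 95.6% ± 10.6 in vehicle mice, the beta-defensin gene Defb23 96.5% ± 9.21 in cadmium mice and 99.8% ± 0.630 in vehicle mice, and the cystatin gene Cst11 74.8% ± 29.6 in cadmium mice and 83.9% ± 32.3 in vehicle mice (SD, n = 15 each).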

How the data were processed

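Sperm DNA of 15 cadmium and 15 vehicle mice was read by RRBS. For every cytosine of a CpG on either strand, the deposited tables give a read count and the methylated fraction of those reads. Per the submitters' processing notes, the tools were methylKit 1.12.0, Bismark 0.22.3, Trim Galore 0.5.0 and bcl2fastq, with mm10 and GRCm38 as builds; their roles are not given in the sources used here. Methylated reads are the rounded product of fraction and deposited count, which was off a whole number by over 0.1 at no more than 1 cytosine per library. Both strands were summed. Because neighbouring CpGs share reads and PCR duplicates are counted, intervals on reads cover counting error only.

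Genes, 9 of 9 matched by symbol, and promoters came from RefSeq GRCm38.p6, which was used without exons. Positions are therefore given as gene body or outside it. A gene window is the body with 5 kb either side, and its level is the methylated share of summed reads. Gene ends are 1000 bp either side of the end with more CpGs, with at least 3 CpGs. Methylated reads were compared between groups by a logistic model with Pearson dispersion of at least 1 and an F test. The relation to the mitochondrial share was tested by two-sided permutation with 100000 resamples; 91887 CpGs without spread had no r. P-values were Benjamini-Hochberg adjusted over the whole table, calls needed an adjusted p under 0.05, and differences are in percentage points of unweighted means with 95% intervals. Fits used numpy 2.4.6, scipy 1.17.1 and limma 3.58.1. The logistic and permutation tests were tried on simulated reads, and limma was not. The simulated spread between mice was a fixed setting, not matched to the dispersion of these CpGs, so it does not show how the tests behave at that dispersion. All measured members, up to 6 CpGs of each, the 3 genes per list with the smallest p and with the largest absolute r, and the 5 windows most like the members were named. Members, lists and tests were chosen with earlier results of these data known.

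Labels do not say that a replicate number pairs mice. Nothing marked a pair of libraries of a group as 1 library deposited again: over 210 pairs the smallest mean chi-square per CpG was 8.88. Alternatives were read minimums of 10 and 20, CpGs read in at least 10 mice of each group, limma, the mitochondrial share as a covariate, rank and log scales, other windows, logistic models, each group alone and the removal of vehicle mice 12 and 13.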

Additional observations from a re-analysis of the deposited data

How the results depend on the processing

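Depth sets how many CpGs can be described: with 10 reads in every mouse 4 of the 9 CpGs remained and with 20 reads 2. Between groups, none of the 9 CpGs or 3 windows was called under any alternative; 1 CpG, the upstream Lcn9 CpG, changed sign, at -0.283 log odds with the mitochondrial share as a covariate. Over all CpGs, 8 of 548278 were called, and 2 of 239773 with 20 reads. With 5 reads needed in only 10 mice per group 14 of 1266462 were called, and with the covariate 2024 of 313001. The covariate fit kept only CpGs with methylated reads in 3 or more mice and unmethylated reads in 3 or more. Limma called 0, and 0 with the replicate block. Over all windows 3 of 31531 were called with the covariate, against 0 of 31753. Whether replicate numbers pair the mice is not said by the labels, and correlations between libraries cannot settle it. Of 15 same-numbered pairs, 5 correlated over 0.1 (-0.248 to 0.653). For 2 of 15 cadmium mice the same-numbered vehicle mouse was the closest. Of the 9 CpGs, 4 were called lower with the mitochondrial share, 2 without vehicle mice 12 and 13, and 0 in cadmium mice alone. The logistic model called 8 (35095 of all 313001 fitted CpGs lower) and 8 with treatment in it (36406 of 313001). It also called 8 with 5 reads needed in only 10 mice per group (added after seeing the data). With 10 reads 1 of the 4 CpGs left was called, and with 20 reads 0 of the 2 left. The upstream Lcn9 CpG kept its call with 10 reads, and the other called CpGs were not in that set. With 20 reads none of the called CpGs was left. Over all CpGs 19873 of 353950 were lower with 10 reads, and 17092 of 449898 without vehicle mice 12 and 13. Of all 456391 CpGs 24672 were lower and 22907 higher; these were 76 and 87 of 388217 in cadmium mice alone, 13986 and 12641 of 397848 in vehicle mice alone, 12420 and 13718 of 208737 with 20 reads, and 67649 and 49661 of 649737 in the added logistic model. By r, 0 of the 3 called windows passed in cadmium mice alone. By rho, Lcn5 and Lcn9 passed there, both at -0.74 (permutation test, adjusted p = 0.0496 and 0.0498). With 20 reads 2 windows remained, without Lcn10, and 0 passed, Lcn9 at r = -0.41 (permutation test, adjusted p = 0.0796). Of all 31730 windows 5910 were lower and 4047 higher; 1291 and 970 were so in cadmium mice alone, and 3309 and 2989 in vehicle mice alone. The Lcn5 window lost its call with 10 reads, at r = -0.21, where its far CpG alone remained, and within vehicle mice, at r = -0.47. The causes were not tested.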

Other observations

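The strands of a CpG were read unequally. The far Lcn5 CpG and the CpG 818 bp after the Lcn10 start were read on the minus strand alone, and the Lcn9 CpGs 412 and 427 bp after the start on the plus strand alone. Where both strands were read, mean levels were taken over the mice with 5 or more reads on that strand, so the mice differ between strands. Plus and minus levels were 72.9% and 86.1% at the CpG 844 bp after the Lcn10 start (29 and 30 mice). They were 60.5% and 52.6% at the upstream Lcn9 CpG (26 and 29 mice), and 56.0% and 68.2% at the first Lcn5 CpG (10 and 29 mice). At chr2:25683705 they were 79.3% and 75.9% (25 and 24 mice), and at chr2:25823608 85.3% and 81.1% (30 and 29 mice). The dispersion of the 9 CpGs around the group levels had a median of 18.5 times the binomial variance, against 11.2 over all CpGs averaging 50% or more. Level and read depth were not matched in this comparison.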
